A study of Homo sapiens with 12 samples.

Results

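The genes described here are 10 genes of the circadian clock: PER1, PER2, PER3, CRY1, CRY2, NR1D1, NR1D2, DBP, TEF and BHLHE40. They were taken by name, 10 of the 61860 genes in each count table, and all 10 passed the low-count filter in both tables. The choice was made with earlier results of these data known, so the tests below are not free of that choice. PER3 was picked because its level was lower with one siRNA and higher with the other, so its values in both comparisons are a description and carry no test, while the other 9 genes were tested. RNA was sequenced in 12 libraries of 22Rv1 (22RV1 in the labels), a line of human prostate cancer cells that came from a xenograft, in a study of phosphorylated RB, ETS1 and the response to inhibitors of CDK4/6. Of these, 3 libraries were of cells in which siRNA targeted ETS1, a transcription factor of the ETS family, and 3 were the controls of that knockdown. Another 3 were of cells in which siRNA targeted ZNF783, a zinc finger protein, and 3 were its own controls. All 12 samples shared the cell line, the growth medium (RPMI-1640 with fetal bovine serum), total RNA as input and a library kit that marks the strand. The sources used here do not give the siRNA sequences, what the control cells received, the time of harvest or any synchronisation of the cultures.

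The circadian clock is a feedback loop of transcription that runs in most cells of the body. CLOCK and BMAL1 bind E-boxes as a pair and switch on the PER, CRY, NR1D and DBP genes, and the PER and CRY proteins return to the nucleus to repress that pair. NR1D1 and NR1D2 (REV-ERB alpha and beta) are nuclear receptors that repress BMAL1, DBP and TEF are activators that bind D-boxes in PER promoters among others, and BHLHE40 (DEC1) is a repressor that binds E-boxes.

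The promoters are shown because E-boxes and D-boxes are the sites through which the members act on one another. They were searched in the 250 bases before each RefSeq transcription start (build GRCh38.p14), on both strands, in 14 windows of the 10 genes. The E-box CACGTG lay in 5 of the 14 windows and in 4 genes (PER1, NR1D2, TEF and BHLHE40), against 6.34% of 35116 windows of the same length over all genes. The variant CACGTT lay in 4 windows, of PER2, CRY1, CRY2 and NR1D1, against 4.55% of all windows. The D-box, searched as TTATGTAA or TTACGTAA, lay in 2 windows, of PER3 and NR1D2, against 0.94% of all windows. The REV-ERB and ROR response element, RRE (0.14% of all windows), the cyclic AMP element TGACGTCA (1.65%) and the ETS motif CCGGAAGT (3.42%) matched 0 of the 14. Each sequence below runs 5′ to 3′ on the strand of its gene, with the matched letters in capitals; AACGTG and TTACATAA are the reverse complements of CACGTT and TTATGTAA. In order they lie at chr17:8152556-8152593 (minus strand), chr2:238288786-238288823 (minus), chr1:7784098-7784137 (plus), chr17:40100736-40100773 (minus), chr3:23945911-23945950 and chr3:23945950-23945987 (both plus), and chr22:41367244-41367281 (plus). A match is a run of letters and was not tested as a bound site.
PER1 E-box: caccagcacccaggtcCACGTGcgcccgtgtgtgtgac
PER2 E-box variant: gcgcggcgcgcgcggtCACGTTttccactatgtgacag
PER3 D-box: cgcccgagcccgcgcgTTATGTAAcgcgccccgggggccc
NR1D1 E-box variant: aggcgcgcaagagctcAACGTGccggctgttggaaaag
NR1D2 D-box: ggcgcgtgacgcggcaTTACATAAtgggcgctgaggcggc
NR1D2 first E-box: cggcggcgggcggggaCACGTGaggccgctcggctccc
TEF E-box: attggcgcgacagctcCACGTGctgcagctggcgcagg

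Total counts ran from 13518177 to 48996691 per library, and the members had between 24 counts (BHLHE40 in 1 ZNF783 siRNA library) and 5685 counts (NR1D2) in a library, above the floor of 3 counts taken for an undetected gene. The labels do not say that replicates were separate cultures, so the spread behind each p-value is that between these samples and may be technical. In RNA from whole cultures, fewer cells expressing a gene and less RNA per cell cannot be told apart. ETS1 siRNA replicate 1 stood apart from its replicates: the chi-square of counts per degree of freedom was 40.3 and 38.9 against replicates 2 and 3, and 1.36 to 2.93 between other replicates of a group. Tests that use the ETS1 siRNA libraries are therefore given with and without it, except where stated. ETS1 itself had 0, 3 and 0 counts with ETS1 siRNA and 0, 1 and 0 counts in its controls, so its knockdown could not be measured. ZNF783 stood at 28.7, 27.4 and 28.0 CPM (counts scaled to a library of equal size, with TMM factors) with ZNF783 siRNA and at 33.85, 34.9 and 35.7 CPM in its controls. That was a log2 fold change of -0.31 (adjusted p = 2.46e-05, edgeR). With ETS1 siRNA ZNF783 also lay below its controls, at 12.5 to 18.7 CPM, against 21.0 to 22.3 CPM in the ETS1 controls. Over all libraries its log2 fold change there was -0.38 (SE 0.15) and did not pass (adjusted p = 0.258, edgeR). The value without ETS1 siRNA replicate 1 is not given here. The difference between the siRNA effects did not pass either (-0.05, SE 0.16, adjusted p = 0.925, edgeR), which does not show that they were equal. All 9 luminal prostate markers were above the floor in all libraries, KLK3 the lowest among them at 9.21 CPM or more. With ZNF783 siRNA 5 of the 9 fell and 0 rose (edgeR), where 13.8% of all tested genes fell and 11.3% rose. Among the 5 were KLK3 (-0.51, adjusted p = 6.4e-05) and KRT8 (-0.26, adjusted p = 9.28e-11). The summed level of the 9 was 3720 to 3750 CPM, against 4000 to 4030 CPM in controls. With ETS1 siRNA 0 of the 9 passed (0.0461% of all genes), at a summed level of 3880 to 3950 CPM, against 3980 to 4000 CPM in controls. Without replicate 1, 4 of the 9 fell and 0 rose, where 13% of all tested genes fell and 9.96% rose. There the log2 fold changes of 5 of the 9 were above 0. Of 8 markers of other cell types, PECAM1 and CD68 stayed at or under the floor throughout, and COL1A1 was the highest at 12.7 to 28.0 CPM. With ZNF783 siRNA COL1A1 was the only one of the 8 tested and fell (-0.23, adjusted p = 0.00535), and the 8 summed to 23.8 to 25.3 CPM, against 27.4 to 29.9 CPM in controls. With ETS1 siRNA they summed to 14.9 to 16.5 CPM, against 15.5 to 17.5 CPM in controls. The part of these markers in the clock gene results was not tested.

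Levels can be set against each other between genes only per length, so they are given here as CPM per kilobase of exon. That length joins all annotated exons of a gene and is not that of the transcripts expressed. The order of the genes thus depends on the annotation too. NR1D2 was the highest of the 10 in every group, at 20.2 ± 0.928 with ETS1 siRNA and 17.6 ± 0.413 in its controls, and at 15.5 ± 0.344 with ZNF783 siRNA and 14.4 ± 0.19 in its controls (SD, n = 3 each). In the ETS1 experiment CRY1 followed at 7.71 ± 0.0997 with siRNA and 6.16 ± 0.311 in controls, then PER1 at 4.47 ± 0.325 and 4.87 ± 0.0908. In the ZNF783 experiment that order was turned round, with PER1 at 8.13 ± 0.168 with siRNA and 8.82 ± 0.368 in controls and CRY1 at 5.77 ± 0.241 and 5.84 ± 0.108. PER3 and BHLHE40 held the last 2 places in every group, and their libraries overlapped each other in all groups but the ZNF783 siRNA one. There PER3 was at 0.739 ± 0.095 and BHLHE40 at 0.517 ± 0.0603 CPM per kilobase. The other overlapping neighbours were NR1D1 with DBP in 3 groups (both ETS1 groups and ZNF783 siRNA), TEF with PER2 in ETS1 controls, and CRY2 with PER2 and TEF with NR1D1 with ETS1 siRNA. Among all tested genes NR1D2 stood at percentile 77.5 to 86.9 of the levels per length, and PER3 at percentile 12.8 to 31.7.

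**Figure D1:**
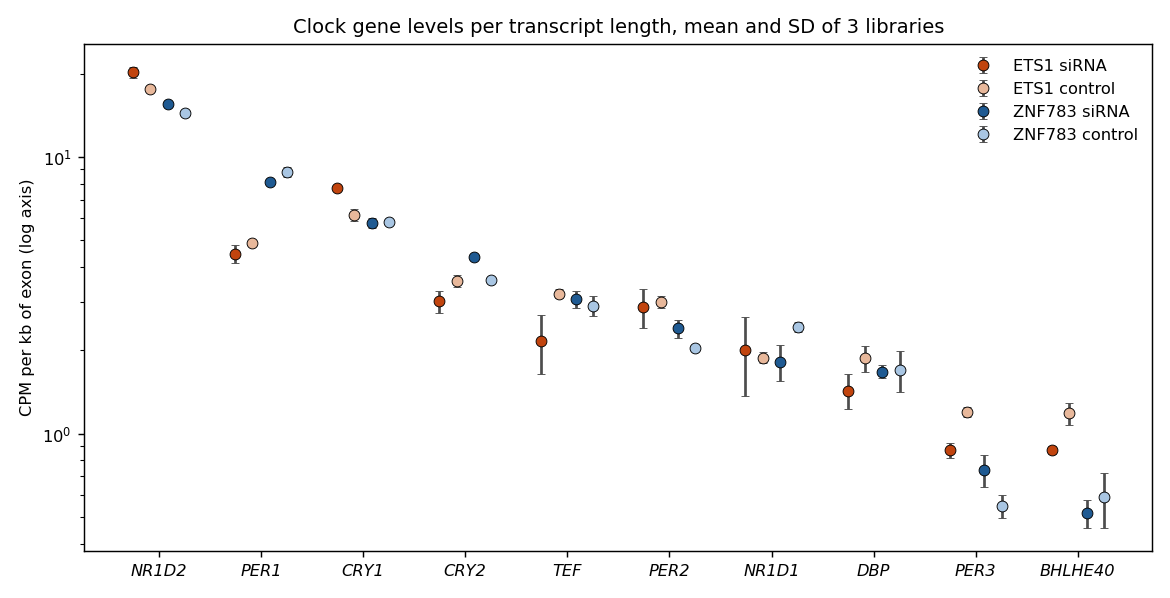
Level per exon length of each clock gene (vertical axis, CPM per kilobase, log scale) in the 4 groups, as the mean and SD of 3 libraries. NR1D2 is highest in every group and PER3 and BHLHE40 are lowest; PER1 lies above CRY1 in the ZNF783 experiment and below it in the ETS1 experiment.

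The first comparison asked how the clock genes differed when ETS1 was targeted. CRY1 and NR1D2 lay above their controls in all 3 ETS1 siRNA libraries, with log2 fold changes of 0.32 and 0.20. PER1, PER3, CRY2, DBP, TEF and BHLHE40 lay below them in all 3, between -0.12 (PER1) and -0.55 (TEF), while PER2 and NR1D1 overlapped with their controls. Over all 6 libraries 0 of the 9 tested members passed an adjusted p of 0.05 (edgeR), where 0.0461% of 19542 genes passed in all; 6 of the 9 had an unadjusted p under 0.05, as did 18.1% of all genes. DESeq2 called 2 of the 9 (3.76% of all genes), limma-voom 0 (0.118% of all genes), limma-voom with sample quality weights 6 (19.1% of all genes), and edgeR in 1 fit of all 12 libraries 5 (9.57% of all genes). Without ETS1 siRNA replicate 1, edgeR called 7 of the 9, 2 higher and 5 lower, where 23% of 20237 genes were called, 9.96% higher and 13% lower. The groups did not overlap for 7 of these 9 genes over all libraries, where 35.3% of all tested genes did not overlap, and for 9 of 9 without replicate 1, where 47.4% did not.

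Of the PER genes, whose proteins form the repressor complex with CRY, PER1 had 28.75, 33.1 and 32.05 CPM with ETS1 siRNA and 33.98, 33.5 and 34.7 CPM in its controls. Every siRNA library lay below every control, the nearest by 1.12%. Its log2 fold change of -0.12 did not pass (SE 0.073, adjusted p = 0.389, edgeR), nor did the -0.07 found without replicate 1 (adjusted p = 0.295). PER2 had 23.2, 18.8 and 17.1 CPM with ETS1 siRNA, replicate 1 being above all 3 controls at 21.45, 20.9 and 19.5 CPM and the other 2 below them. Its log2 fold change was -0.07 (SE 0.12, adjusted p = 0.752) over all libraries and -0.20 (adjusted p = 0.00987) without replicate 1. PER3 had 7.20, 6.56 and 7.41 CPM with ETS1 siRNA and 10.0, 9.29 and 9.85 CPM in the controls. Here replicate 1 lay between the other 2, and all 3 siRNA libraries were at least 20.2% below the lowest control, with a log2 fold change of -0.47 (-0.49 without replicate 1). PER3 (ENSG00000049246) lies on chromosome 1 at 7784320 to 7845177 (GRCh38, plus strand), and its exons share 868 bases with UTS2, which had 0 counts in all 12 libraries.

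CRY1 and CRY2 encode the cryptochromes, the main repressors of CLOCK and BMAL1. CRY1 had 39.1, 39.5 and 38.5 CPM with ETS1 siRNA and 30.5, 30.1 and 33.0 CPM in controls, without overlap and with replicate 1 close to the others. On the log2 scale it was 0.32 above them (SE 0.065, adjusted p = 0.115, edgeR). Without replicate 1 the value was nearly the same, 0.31, and passed (adjusted p = 3.62e-07). CRY2 had 16.8, 20.1 and 19.0 CPM with ETS1 siRNA and 22.1, 21.0 and 23.2 CPM in controls, lower in every siRNA library. Its value was -0.24 (SE 0.089, adjusted p = 0.24), and -0.18 (adjusted p = 0.0115) without replicate 1. The 2 cryptochrome genes thus lay on opposite sides of their controls.

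The nuclear receptor genes differed in how they depended on replicate 1. NR1D2 had 123.6, 115 and 113.6 CPM with ETS1 siRNA and 99.6, 104 and 103 CPM in controls, without overlap (0.20, SE 0.057, adjusted p = 0.181, edgeR; 0.15, adjusted p = 0.000211, without replicate 1). NR1D1 had 7.54, 4.78 and 4.28 CPM with ETS1 siRNA and 5.03, 5.12 and 5.48 CPM in controls. Its replicate 1 lay above and its other 2 libraries below all controls, with a log2 value of 0.06 over all libraries (SE 0.21, adjusted p = 0.884) and of -0.20 (adjusted p = 0.179) without replicate 1.

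The D-box activators and BHLHE40 lay lower against their controls than PER1, PER2 and CRY2 did. TEF had 7.37, 11.7 and 11.5 CPM with ETS1 siRNA and 14.95, 14.6 and 15.7 CPM in controls, with replicate 1 the lowest. The log2 value was -0.55 over all libraries (SE 0.17, adjusted p = 0.193, edgeR), and -0.39 (adjusted p = 1.17e-05) without replicate 1. DBP had 7.80, 10.1 and 10.2 CPM with ETS1 siRNA and 11.03, 12 and 13.7 CPM in controls, again with replicate 1 lowest and no overlap (-0.38, SE 0.13, adjusted p = 0.231; -0.29, adjusted p = 0.00504, without replicate 1). BHLHE40 had 3.28, 3.28 and 3.47 CPM with ETS1 siRNA and 4.26, 4.34 and 5.02 CPM in controls. Replicate 1 lay with the others here, and the value was -0.44 (SE 0.11, adjusted p = 0.153) over all libraries and -0.45 (adjusted p = 0.00333) without it. SPHK2, which shares 10.1% of the exon bases of DBP from the opposite strand, stood at -0.10 on the log2 scale (adjusted p = 0.554), and at -0.07 (adjusted p = 0.545) without replicate 1.

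**Figure D2:**
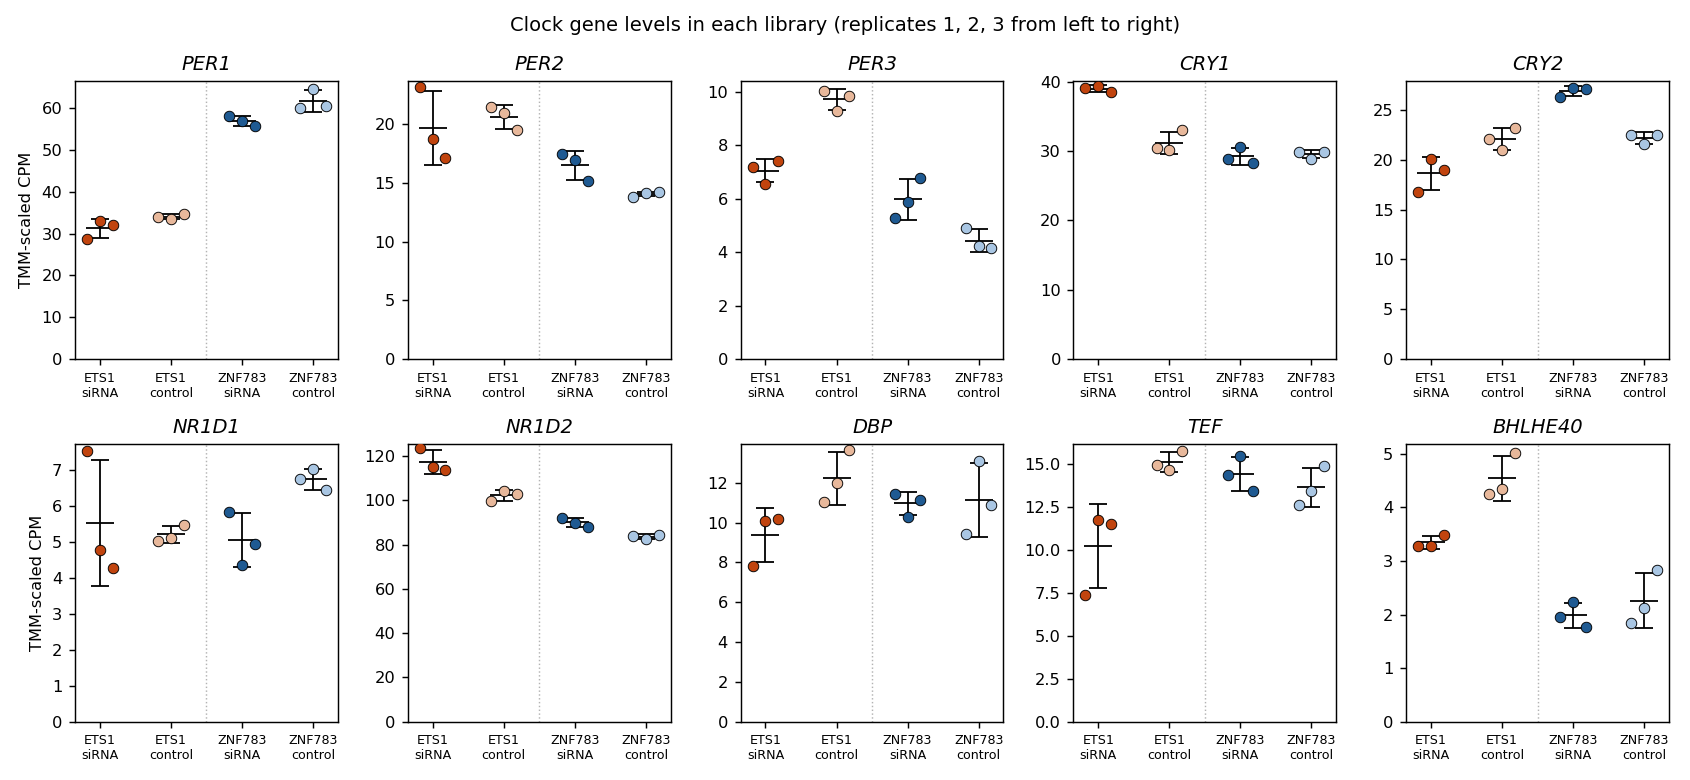
TMM-scaled CPM of each clock gene in every library (points, replicates 1 to 3 from left to right), with the mean and SD of each group; axes start at 0. ETS1 siRNA replicate 1 stands away from replicates 2 and 3 for PER2, NR1D1 and TEF and lies with them for PER3, CRY1 and BHLHE40.

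The second comparison asked how the clock genes differed when ZNF783 was targeted. PER2, CRY2 and NR1D2 rose, by 0.24, 0.27 and 0.11 on the log2 scale, and PER1 and NR1D1 fell, at -0.11 and -0.40. These were 3 rises and 2 falls among 9 tested members (edgeR), where 25.1% of 17630 genes were called, 11.3% higher and 13.8% lower. CRY1, DBP, TEF and BHLHE40 did not pass. The groups did not overlap for 5 of these 9 genes, where 38.2% of all tested genes did not overlap. DESeq2 called 1 of the 9, CRY2 (adjusted p = 0.0107), where it called 15.4% of all tested genes. In 1 fit of all 12 libraries edgeR called 0 of the 9 (4.21% of all genes; 1 had an unadjusted p under 0.05), CRY2 being at 0.26 (adjusted p = 0.0637).

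PER1 had 58.1, 57.0 and 55.75 CPM with ZNF783 siRNA and 60.0, 64.7 and 60.6 CPM in its controls. All siRNA libraries lay below all controls, the nearest by 3.13%, and the log2 fold change of -0.11 passed narrowly (SE 0.043, adjusted p = 0.0491, edgeR). Leaving out any 1 of the 6 libraries ended the call. PER2 rose to 17.5, 16.9 and 15.1 CPM with ZNF783 siRNA, against 13.85, 14.1 and 14.2 CPM in controls, without overlap (0.24, SE 0.078, adjusted p = 0.0177). Its call was lost when ZNF783 siRNA replicate 1 was left out (0.20, adjusted p = 0.123), and likewise for control replicate 1 (0.23, adjusted p = 0.0578). PER3 had 5.26, 5.89 and 6.79 CPM with ZNF783 siRNA and 4.91, 4.23 and 4.15 CPM in controls. Every siRNA library was above every control, the nearest by 7.1%, and the log2 fold change was 0.42, ranging from 0.33 to 0.52 when single libraries were left out.

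CRY2 rose to 26.3, 27.2 and 27.1 CPM with ZNF783 siRNA, against 22.5, 21.55 and 22.5 CPM in controls. The lowest siRNA library was 16.8% above the highest control, and CRY2 rose by 0.27 on the log2 scale (SE 0.062, adjusted p = 0.000736, edgeR). The call held when any 1 library was left out (0.26 to 0.29), but not in the fit of all 12 libraries. CRY1 had 28.8, 30.6 and 28.3 CPM with ZNF783 siRNA and 29.8, 28.9 and 29.9 CPM in controls, overlapping, with a value of -0.02 (SE 0.057, adjusted p = 0.882).

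NR1D2 rose to 92.2, 89.9 and 88.2 CPM with ZNF783 siRNA, against 83.9, 82.45 and 84.6 CPM in controls, without overlap (0.11, SE 0.037, adjusted p = 0.023, edgeR). Its call was lost when ZNF783 siRNA replicate 1 was left out (adjusted p = 0.125), and likewise for control replicates 1 and 2 (adjusted p = 0.0505 and 0.0501). NR1D1 fell to 5.84, 4.35 and 4.95 CPM with ZNF783 siRNA, against 6.76, 7.03 and 6.45 CPM in controls (-0.40, SE 0.13, adjusted p = 0.0139). The groups did not overlap; the call was lost when ZNF783 siRNA replicate 2 was left out (-0.30, adjusted p = 0.111), and likewise for control replicate 2 (-0.37, adjusted p = 0.0538). THRA, the thyroid hormone receptor gene on the opposite strand, shares 9.49% of the exon bases of NR1D1, and reads were counted without regard to strand. THRA had 34.4, 30.9 and 31.2 CPM with ZNF783 siRNA and 43.5, 43.1 and 38.8 CPM in controls (-0.36, adjusted p = 1.74e-06, edgeR). Without strand, reads of NR1D1 and THRA in the shared bases cannot be told apart. Whether such reads entered either count was not tested.

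DBP, TEF and BHLHE40 overlapped between the groups. DBP had 11.45, 10.3 and 11.15 CPM with ZNF783 siRNA and 9.42, 13.1 and 10.9 CPM in controls (-0.02, SE 0.099, adjusted p = 0.919, edgeR). TEF had 14.3, 15.4 and 13.4 CPM with siRNA and 12.6, 13.4 and 14.9 CPM in controls (0.08, SE 0.083, adjusted p = 0.544). BHLHE40 had 1.95, 2.23 and 1.77 CPM with siRNA and 1.84, 2.11 and 2.82 CPM in controls (-0.20, SE 0.20, adjusted p = 0.531). The controls spanned all siRNA values for DBP, while 1 siRNA library lay above them for TEF and 1 below them for BHLHE40. The SE for BHLHE40 was the largest of the 9, at 24 to 49 counts per library.

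**Figure D3:**
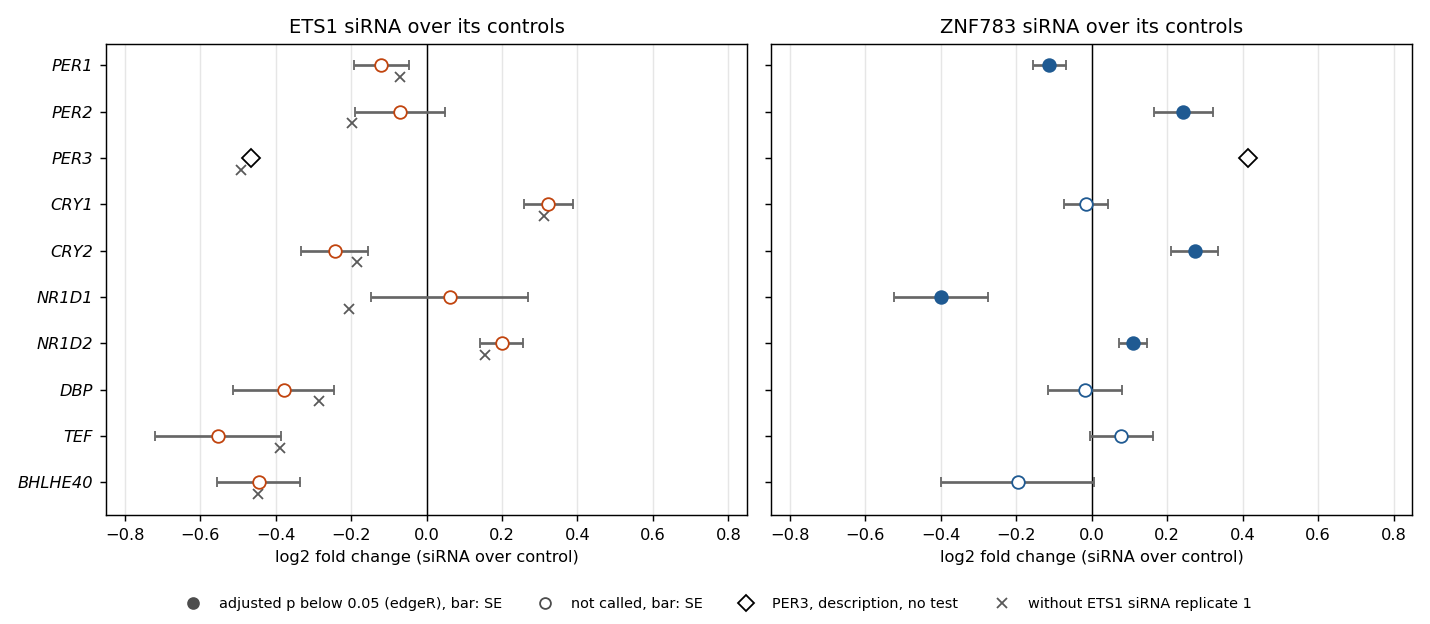
Log2 fold change of each clock gene with ETS1 siRNA (left) and ZNF783 siRNA (right), each over its own controls, with SE bars; filled points passed an adjusted p of 0.05 in edgeR, the diamond is PER3, given with no test, and crosses are values without ETS1 siRNA replicate 1. No filled point appears on the left, 5 appear on the right, and PER2, PER3, CRY1, CRY2, NR1D1 and TEF lie on opposite sides of 0 in the 2 panels. The cross of NR1D1 (-0.20) lies on the same side as its point on the right, where CRY1 (-0.02) and TEF (0.08) did not pass. PER3 was picked for lying on opposite sides, and PER2 on the left was at -0.07 with an SE of 0.12. The share of all genes on opposite sides is not given here.

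The effects of the siRNAs were then compared with each other in a fit of all 12 libraries, as the ETS1 effect minus the ZNF783 effect. The difference passed for 2 of the 9 tested genes, where 1.68% of 19594 genes were called. CRY1 was higher in this difference (0.35, SE 0.081, adjusted p = 0.0476, edgeR), with 0.32 for ETS1 siRNA and -0.02 for ZNF783 siRNA. CRY2 was lower (-0.50, SE 0.10, adjusted p = 0.0231), with -0.24 and 0.27. PER3, untested, had a difference of -0.87, from -0.47 and 0.42. Without ETS1 siRNA replicate 1 the difference passed for 4 genes (13.7% of 20018 genes were called): CRY1 (0.32, adjusted p = 0.00106), CRY2 (-0.46, adjusted p = 4.93e-05), PER2 (-0.44, adjusted p = 0.000867) and TEF (-0.47, adjusted p = 0.00118). The call of CRY1 was lost when any other single library was left out, and that of CRY2 when ETS1 control replicate 1 or 3 or any 1 library of the ZNF783 experiment was left out (adjusted p = 0.0641 to 0.0804). For PER1 the difference was 0.01 (SE 0.083) and for NR1D2 0.11 (SE 0.066), neither passing, nor without ETS1 siRNA replicate 1 (0.04 for each).

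Fold changes moved with the GC content of transcripts in both experiments. Over 18990 genes the Spearman correlation of log2 fold change with GC content was -0.504 with ETS1 siRNA (-0.363 without replicate 1), and it was -0.384 over 17254 genes with ZNF783 siRNA; genes are not independent replicates. The members spanned this range, with NR1D2 at 40.6%, CRY1 at 43.4% and PER3 at 45.6% GC, below the median of 48.8% for genes tested with ETS1 siRNA. PER2 at 53.2%, BHLHE40 at 53.5%, TEF at 56.5%, CRY2 at 57.4%, NR1D1 at 59.5%, DBP at 60.8% and PER1 at 62.6% lay above it. With each library corrected for GC content and length, 2 of the 9 genes passed with ZNF783 siRNA (19.5% of 17254 genes): PER2 (0.27, adjusted p = 0.00961) and CRY2 (0.34, adjusted p = 3.03e-05). NR1D1 (-0.30, adjusted p = 0.085), NR1D2 (0.04, adjusted p = 0.518) and PER1 (0.02, adjusted p = 0.844) did not, and the sign of PER1 was turned. With the same correction and without ETS1 siRNA replicate 1, 5 of 9 passed with ETS1 siRNA (20.4% of 19622 genes), CRY1 and NR1D2 as higher and PER2, TEF and BHLHE40 as lower. There CRY2 (-0.12, adjusted p = 0.12) and DBP (-0.19, adjusted p = 0.0732) did not pass. The sign of PER1 was turned with ETS1 siRNA too, to 0.03 (adjusted p = 0.639). With the correction over all ETS1 libraries PER1 was at 0.07 (adjusted p = 0.549) and CRY2 at -0.12 (adjusted p = 0.36). Over all settings PER3 stayed between -0.53 and -0.41 with ETS1 siRNA and between 0.33 and 0.52 with ZNF783 siRNA. PER3 was picked for these shifts in the same libraries, so the ranges are a description and no added support.

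A further 45 clock genes were taken from a list by role, of which 44 were tested with ETS1 siRNA and 43 with ZNF783 siRNA. With ETS1 siRNA 0 of 44 passed in edgeR (0.0461% of all genes), 9 had an unadjusted p under 0.05 (18.1% of all genes), and DESeq2 called 2 (3.76%), limma-voom 0 (0.118%) and limma-voom with quality weights 9 (19.1%). The median log2 fold change was 0.05, against 0.01 over all genes. Without ETS1 siRNA replicate 1 the median was turned to -0.03, against 0.00 over all genes, and 4 rose and 7 fell, where 9.96% of all tested genes rose and 13% fell. When GC content and length were corrected for too, 1 rose and 14 fell, where 7.73% of all tested genes rose and 12.7% fell, and with that correction over all 6 libraries the median was -0.02 and 0 passed. With ZNF783 siRNA 13 rose and 2 fell, where 11.3% of all tested genes rose and 13.8% fell, with a median of 0.05 against 0.00 over all genes. DESeq2 called 8 higher and 2 lower (15.4% of all genes either way), and the fit of all 12 libraries 2 higher, KLF11 and WEE1, and 0 lower (4.21%). With the GC and length correction 6 rose and 3 fell with ZNF783 siRNA, where 8.89% of all tested genes rose and 10.6% fell. None of these shares was tested against other genes.

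Among the 7 activators, CLOCK rose to 111, 113 and 117 CPM with ZNF783 siRNA, against 102, 100.3 and 103 CPM in controls (0.16, adjusted p = 0.000416, edgeR). RORB, a nuclear receptor that competes with the REV-ERBs for their elements, rose by 0.16 (adjusted p = 0.0124). BMAL1, the partner of CLOCK and the target of the REV-ERBs, had 17.6, 18.4 and 17.4 CPM with ZNF783 siRNA and 19.6, 20.2 and 20.6 CPM in controls, without overlap but not passing (-0.18, adjusted p = 0.0612). With the GC correction BMAL1 passed as lower (-0.20, adjusted p = 0.0288). BMAL2, a paralogue of BMAL1, had 23.7, 26.2 and 27.15 CPM with ETS1 siRNA and 19.1, 20.3 and 19.9 CPM in controls (0.38, adjusted p = 0.116; 0.42, adjusted p = 5.9e-09, without replicate 1). Of the 4 further repressors only BHLHE41 (DEC2), the paralogue of BHLHE40, passed with ZNF783 siRNA (0.30, adjusted p = 0.0492); CIART, NFIL3 and TIMELESS did not pass with either siRNA over all libraries, and CIART passed as lower with ETS1 siRNA without replicate 1 (-0.29, adjusted p = 0.00493).

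Of 11 tested genes for kinases and turnover of clock proteins, CSNK1E, a kinase of PER proteins, fell to 102, 97.8 and 97.4 CPM with ZNF783 siRNA, against 110.3, 117 and 108 CPM in controls (-0.17, adjusted p = 0.000318, edgeR). BTRC encodes the F-box protein that marks phosphorylated PER proteins for breakdown. It rose to 61.65, 60.4 and 60.7 CPM with ZNF783 siRNA, against 52.5, 53.5 and 55.4 CPM in controls (0.18, adjusted p = 0.0012). With ETS1 siRNA it had 46.2, 46.75 and 46.4 CPM, against 55.0, 54.6 and 54.0 CPM in controls (-0.23, adjusted p = 0.143; -0.23, adjusted p = 4.84e-06, without replicate 1). The difference between these effects passed (-0.40, adjusted p = 0.00629; -0.41, adjusted p = 1.92e-07, without replicate 1), and BTRC thus lay on the same sides of its controls as PER3 and CRY2. FBXW11, a paralogue of BTRC, rose by 0.10 (adjusted p = 0.0227) with ZNF783 siRNA.

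Among 10 cofactors, the histone methyltransferase gene KMT2A (0.12, adjusted p = 0.00138) and SFPQ (0.09, adjusted p = 0.0101) rose with ZNF783 siRNA, while ZFHX3 and KDM5A did not pass with either siRNA, with or without ETS1 siRNA replicate 1 (edgeR). Among 11 output genes WEE1, a kinase that holds back mitosis and has E-boxes in its mouse promoter, rose to 129.4, 129.9 and 132 CPM with ZNF783 siRNA, against 105, 102 and 102 CPM in controls (0.34, adjusted p = 4.91e-11). With ETS1 siRNA its value was 0.03 (adjusted p = 0.756; 0.01, adjusted p = 0.83, without replicate 1), and the difference passed (-0.29, adjusted p = 0.0271; -0.33, adjusted p = 5.5e-07, without replicate 1). KLF11 rose by 0.25 (adjusted p = 0.000104) and GPAM, an enzyme of triglyceride synthesis, by 0.22 (adjusted p = 0.00128). KLF15, a regulator of amino acid metabolism, fell to 10.6, 13.6 and 11.5 CPM with ZNF783 siRNA, against 14.6, 15.55 and 15.96 CPM in controls (-0.38, adjusted p = 0.000898). Of the further clock genes named as called with ZNF783 siRNA, all except RORB, BHLHE41, CSNK1E, FBXW11 and SFPQ kept their call under the GC correction.

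**Figure D4:**
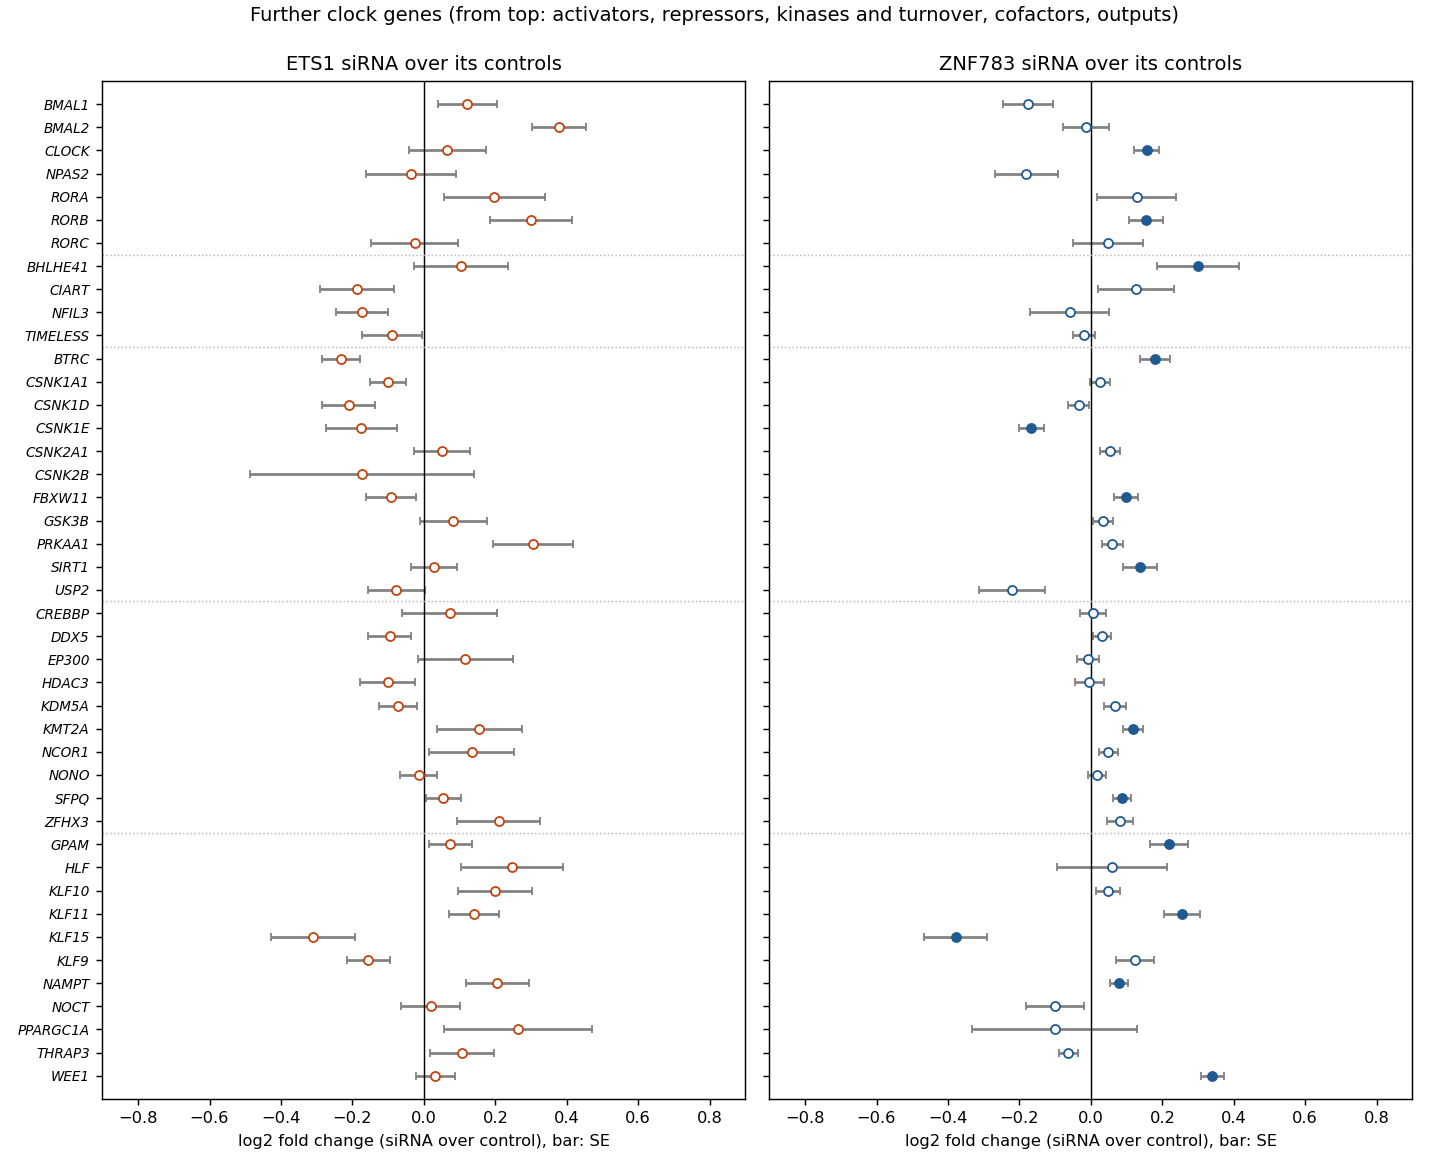
Log2 fold change and SE of 43 of the 44 tested further clock genes with ETS1 siRNA (left) and ZNF783 siRNA (right), each over its own controls, grouped by role from top to bottom; filled points passed an adjusted p of 0.05 in edgeR, and CSNK2B was tested on the left only. No point is filled on the left, and on the right 12 of the 42 drawn are filled above 0 and 2 below it (CSNK1E and KLF15).

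The genes whose profile was nearest to that of PER3 over the 12 libraries, each profile centred on its own experiment, were ranked by the root mean square difference of log2 CPM among 17480 genes. The nearest were SMIM10L2A (0.131), REXO5 (0.131), C1orf54 (0.132), EEF1A1P5 (0.133) and ZKSCAN8P1 (0.134), against a median of 0.284 over all genes. EEF1A1P5 and ZKSCAN8P1 are pseudogenes that may share reads with their parent genes. Without ETS1 siRNA replicate 1 none of these 5 was among the first 5, and their ranks were 6 to 19. Of the other members CRY2 was the nearest to PER3, at rank 19 (0.148), followed by PER2 at rank 2166 (0.228), and NR1D1 was the farthest at rank 15754 (0.417). A gene flat within each experiment would stand at 0.242, the root mean square of the PER3 profile itself. PER2 was thus little nearer than a flat gene, and the members other than CRY2 and PER2 were farther than one. PER3 was picked for its opposite shifts in these same libraries, so any gene with like shifts ranks near it. A near rank is a description, and a link between CRY2 and PER3 was not tested. The rank of CRY2 without ETS1 siRNA replicate 1 is not given here.

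The control groups of the 2 experiments differed in several members when all 12 libraries were put on a common scale. PER3 averaged 9.94 ± 0.394 CPM in ETS1 controls and 4.34 ± 0.405 CPM in ZNF783 controls (SD, n = 3 each), a ratio of 2.29. BHLHE40 averaged 4.64 ± 0.441 and 2.21 ± 0.496 CPM (ratio 2.1), and PER1 34.9 ± 0.712 and 60.5 ± 2.63 CPM (ratio 0.576). A ratio of 2 or more either way was found for 6.54% of 19590 genes, and for 2 of the 10 members. CRY1 (ratio 1.1), CRY2 (1.04), DBP (1.15) and TEF (1.16) had the ratios nearest to 1. The experiment and anything else that differed between the control cultures cannot be told apart, and no test was made.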

How the data were processed

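The authors deposited raw, unnormalized counts of reads in each gene, with a table per knockdown. Per the file headers, featureCounts 2.0.1 counted exons of release 107 of the GRCh38 annotation in paired-end alignments, with no strand option. The submitters' processing notes name the build hg38. The sources used here do not give the version of the aligner. Groups and replicate numbers come from the titles in the labels.

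Each knockdown was set against its own controls in a fit of its whole table (edgeR 4.0.16, R 4.3.3): default expression filter, TMM scaling, a robust quasi-likelihood F test with the group as the only term, and Benjamini-Hochberg adjustment over all genes tested. Genes were called at an adjusted p below 0.05. The difference between effects was a contrast over all 12 libraries. Standard errors belong to log2 fold changes and SDs to CPM. The fit was tested on simulated counts. Replicates were compared by chi-square, and 0 pairs agreed within sampling noise. Alternatives were other scalings and filters, DESeq2 1.42.0, limma-voom (limma 3.58.1), a replicate block, 1 fit of all 12 libraries, leaving out each library, a stricter threshold, and a spline correction for GC content and exon length from GENCODE release 29, which also gave coordinates. Promoters are from RefSeq (GRCh38.p14).

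The members and gene lists were chosen with earlier results of these data known. Beside the members, up to 4 genes of each further list with the smallest adjusted p are named, with genes overlapping a member's exons and the 5 genes nearest to PER3. Some genes picked this way are left out. Depth limits precision through total counts, and the floor of 3 counts covers counting error only.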

Additional observations from a re-analysis of the deposited data

Results flagged for a closer look

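CRY1 and CRY2 were picked out because the effects of the siRNAs on them differed by the test of the difference itself (ETS1 effect minus ZNF783 effect, 12 libraries, edgeR). For CRY1 the difference was 0.35 on the log2 scale (adjusted p = 0.0476) and for CRY2 -0.50 (adjusted p = 0.0231). PER3 was picked out because all 3 ETS1 siRNA libraries lay below all their controls and all 3 ZNF783 siRNA libraries above theirs, a difference of -0.87. This difference was not tested, since PER3 was chosen for it.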

How the results depend on the processing

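With ETS1 siRNA 0 of 9 clock genes were called in the fit of all 6 libraries; DESeq2 called 2, limma-voom with quality weights 6 and the fit of all 12 libraries 5, and the GC and length correction without ETS1 siRNA replicate 1 gave 5. Leaving out single libraries gave 0 to 7, the 7 without ETS1 siRNA replicate 1 and 0 without any other. With ZNF783 siRNA the count of 5 became 1 with DESeq2, 0 in the fit of all 12 libraries, 2 with the GC and length correction, 1 at an adjusted p below 0.01 and 2 to 4 when single libraries were left out. The GC and length correction turned the value of PER1 with ZNF783 siRNA to 0.0151 (adjusted p = 0.844). With ETS1 siRNA it turned PER1 to 0.0713 (adjusted p = 0.549), and to 0.0338 (adjusted p = 0.639) without replicate 1. For the difference, the count of 2 became 1 with DESeq2 size factors, 1 with limma-voom, 4 with quality weights, 1 with the GC and length correction, 4 with that correction without ETS1 siRNA replicate 1, 0 at an adjusted p below 0.01 and 0 to 4 when single libraries were left out. For the difference, calls over all genes rose too, from 1.68% to 13.7% of genes without ETS1 siRNA replicate 1. Shares over all genes are not given here for its other settings, so those counts cannot be set against other genes. The cause of these shifts was not tested. As a replicate block, the replicate numbers of the labels gave 0 calls with ETS1 siRNA, 5 with ZNF783 siRNA and 0 for the difference. The labels do not say that these numbers pair the samples. Deviations of same-numbered libraries correlated at 0.0936, -0.246 and 0.315 in the ETS1 experiment. In the ZNF783 experiment they correlated at -0.0257, -0.0298 and -0.0324. With 3 libraries in a group these values cannot decide whether samples were paired. Of the 5 genes nearest to PER3, 0 were among the nearest 5 without ETS1 siRNA replicate 1. Depth limits BHLHE40 most, at 24 counts in its lowest library.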
